A study of Mus musculus with 5 samples.

Results

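The 10 genes described here are regulators of the mammary lineage and of the response to lactogenic hormones: Prlr, Stat5a, Stat5b, Nr3c1, Esr1, Pgr, Gata3, Foxa1, Elf5 and the milk protein gene Csn3. They were chosen by name, with earlier results of these data known, and 7 of the 10 are among the 12934 genes of the count table. Elf5, Pgr and Csn3 are not among them, so their levels were not analysed here. RNA was sequenced from EpH4 cells, a spontaneously immortalized mouse mammary epithelial line from a BALB/c mouse, all of them Cas9-expressing. The sgControl group (3 libraries) carried a control sgRNA and the sgMef2d group (2 libraries) carried an sgRNA against Mef2d, a MADS-box transcription factor. Both lentiviral constructs were kept by antibiotic selection, blasticidin for Cas9 and puromycin for the sgRNA, and what the methods call stable clones were used. Cells of both groups grew in DMEM with fetal bovine serum, and the labels name no lactogenic hormone in the medium. The labels do not give the sgRNA of each sgMef2d library or whether the libraries came from separate cultures, so the p-values measure only the spread between these libraries, which may be technical.

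Prolactin binds the receptor Prlr on the mammary epithelial cell and activates the kinase Jak2, which phosphorylates STAT5A and STAT5B. The phosphorylated STAT5 proteins enter the nucleus and, together with the glucocorticoid receptor encoded by Nr3c1, switch on the casein genes, of which Csn3 encodes kappa-casein. Esr1 and Pgr encode the oestrogen and progesterone receptors of hormone-sensing luminal cells, where Foxa1 opens chromatin for the oestrogen receptor. Gata3 maintains the luminal lineage, and Elf5 drives the alveolar cells that secrete milk.

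Of the 7 regulators with counts, none passed the test between sgMef2d and sgControl, in which 7.95% of the 12483 genes tested did. The test was the quasi-likelihood test of edgeR on the counts, called at an adjusted p below 0.05 after Benjamini-Hochberg adjustment over all genes tested. An edgeR adjusted p below is from this test, and log2FC is its log2 fold change, sgMef2d against sgControl. DESeq2 and limma-voom also called 0 of the 7. At an unadjusted p below 0.05 the count was 1 of 7, Prlr, beside 23.2% of all genes tested. The groups did not overlap for 2 of 7, Prlr and Esr1, beside 41.1% of all genes tested. The median log2FC was -0.08 over the 7 regulators and 0.0031 over all genes, with 2 of the 7 above 0 and 5 below.

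Library totals lay between 13601145 and 20498563 counts, so that 3 counts, the floor used here, stood for 0.146 to 0.221 CPM (counts scaled to a fixed library total with TMM factors). The replicates of sgControl were not equally close. A chi-square per degree of freedom, near 1 where only counting error separates libraries, was 1.99 between sgControl replicates 2 and 3. It was 10.3 and 13.3 when replicate 1 was set against them, and 10.6 to 12.7 for libraries of different groups. Without sgControl replicate 1, 29.4% of genes passed the test, as against 4.84% and 6.51% without sgControl replicate 2 or 3, and 1.88% and 1.83% without sgMef2d replicate 1 or 2. Calls made without a library are to be read against these shares. The RNA of the targeted gene did not separate the groups. Mef2d reached 64.3, 76.9 and 71.5 CPM in sgControl and 64.2 and 65.8 CPM in sgMef2d (log2FC -0.12, edgeR adjusted p = 0.400). Leaving out sgControl replicate 1 gave -0.19 (edgeR adjusted p = 0.00550). A Cas9 cut need not lower the RNA of its gene, so these counts do not check the sgMef2d labels. The study looked at the protein by immunoblot, which is not part of the data used here, and each direction below is between libraries as labelled.

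The labelled mammary epithelial type was read from marker lists. All 6 general epithelial markers were listed, and their summed level was 991 to 1150 CPM in sgControl and 1187 to 1206 CPM in sgMef2d, with 1 gene of 6 called, Jup, higher (16.7%, beside 7.95% of all genes). Of 15 luminal markers 11 were listed, without Krt19, Kit, Prom1 and Aldh1a3, and they summed to 4216 to 4484 CPM in sgControl and 4043 to 4187 CPM in sgMef2d. Of the 11, 3 were called (27.3%, beside 7.95% of all genes). Krt18 and Itga2 fell, by 0.26 and 0.47 on the log2 scale, and Cldn4 rose, with a log2FC of 0.26. Of 15 basal or myoepithelial markers 11 were listed, with summed levels of 1127 to 1219 CPM in sgControl and 1661 to 1733 CPM in sgMef2d.

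Of the 11 basal markers tested, 4 rose and 1 fell (45.5%, beside 7.95% of all genes), with Krt5 and Krt17 entering the test through sgMef2d alone. The log2FC was above 0 for 6 of the 11 and below 0 for 5, with a median of 0.08. Krt5, a basal keratin, had 3, 0 and 1 counts in the sgControl libraries and 260 and 211 counts in the sgMef2d libraries. Krt14, its partner keratin, rose from a mean of 439 ± 3.50 CPM (SD, n = 3) to 902 ± 38.6 CPM in sgMef2d (SD, n = 2), and Trp63, the basal transcription factor, rose from 29.1 to 48.6 CPM in the means. Krt17 also rose, from 0.702 to 3.19 CPM, whereas Acta2, the smooth muscle actin of myoepithelium, fell from 18.6 to 10.6 CPM. The part of these basal markers in the results below was not tested, and in bulk RNA fewer cells of a type and less RNA per cell cannot be told apart.

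Markers of cells outside the epithelium were mostly not listed. Of 9 fibroblast markers 6 were listed, with sums of 643 to 767 CPM in sgControl and 608 to 649 CPM in sgMef2d, of which Col3a1 and Dcn rose and Col1a2 fell (3 of 6, or 50%, beside 7.95% of all genes). Of 8 leukocyte markers 2 were listed, without Ptprc, and 0 of 2 were called (7.95% of all genes). Both had a log2FC above 0, and the groups did not overlap for 1 of the 2, beside 41.1% of all genes. Of the 2, Lyz2 entered the test through sgMef2d alone, which favours a value above 0. The 2 markers summed to 2.58 to 3.40 CPM in sgControl and 3.84 to 3.94 CPM in sgMef2d. None of 6 endothelial markers and 1 of 5 adipocyte markers, Fabp4, were listed, and Fabp4 fell from 3.07 to 1.33 CPM.

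Levels of different genes were compared per kilobase of merged exons. Gata3 and Nr3c1 were the most abundant of the 7 regulators, at 16.5 ± 1.38 and 14.6 ± 0.761 CPM per kilobase in sgControl (SD, n = 3) and 15.8 ± 0.151 and 13.5 ± 0.424 in sgMef2d (SD, n = 2). The ranges of these top genes over the libraries overlapped, at 15.0 to 17.7 for Gata3 and 13.2 to 15.3 for Nr3c1. Stat5b followed at 8.63 ± 0.474 in sgControl and 9.14 ± 0.221 in sgMef2d, and Stat5a at 2.03 ± 0.383 and 1.90 ± 0.162. Esr1 and Foxa1 were low and also overlapped, at 0.350 to 0.451 for Esr1 and 0.283 to 0.463 for Foxa1. Prlr was the lowest, at 0.0127 to 0.0878 CPM per kilobase. Both overlaps depended on the length used. Per kilobase of the longest transcript, Esr1 (0.754 to 0.971) lay above Foxa1 (0.295 to 0.482), and Gata3 (18.5 to 21.9) above Nr3c1 (15.8 to 18.3). Among all listed genes in sgControl, Gata3 stood at the 75.1 percentile, Nr3c1 at 72.2, Stat5b at 58.6, Stat5a at 28.3, Esr1 at 10.5, Foxa1 at 8.97 and Prlr at 0.193. The receptors for prolactin and oestrogen were thus near the lower end of the table, while the glucocorticoid receptor and Gata3 were in its upper part.

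**Figure D1:**
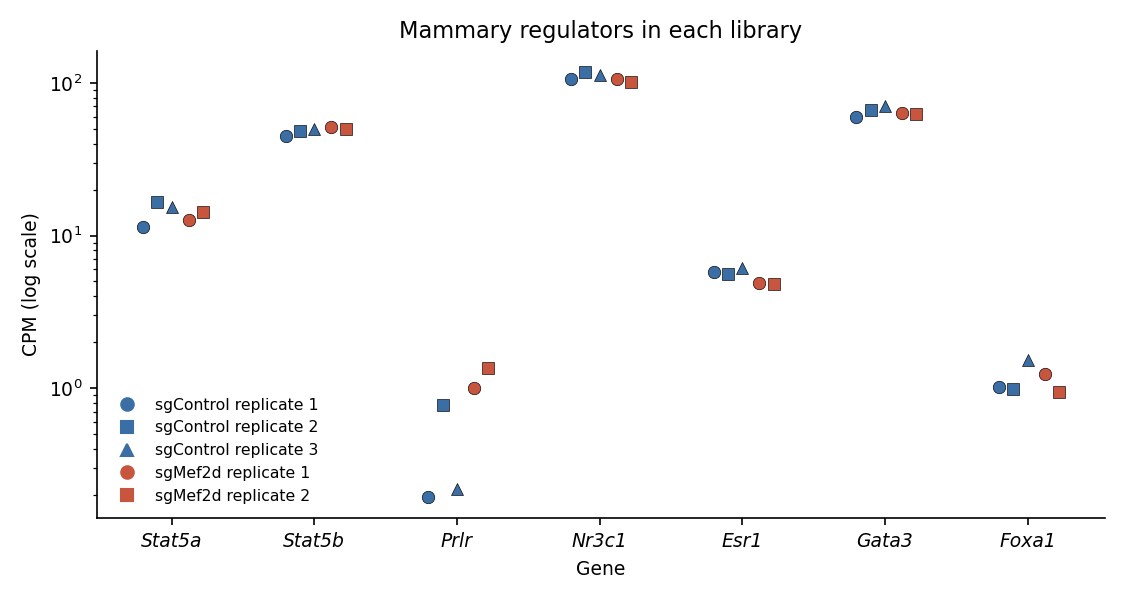
Level of each of the 7 listed regulators in each library, in CPM on a log scale, with blue symbols for the 3 sgControl libraries and red symbols for the 2 sgMef2d libraries. The groups overlap for Stat5a, Stat5b, Nr3c1, Gata3 and Foxa1, while both sgMef2d libraries lie above the sgControl libraries for Prlr (1.0 and 1.35 against at most 0.780) and below them for Esr1 (4.88 and 4.78 against at least 5.60).

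Prlr, the prolactin receptor (ENSMUSG00000005268.20, GRCm38 chr15:10177238-10349180, plus strand), had the largest difference of the 7 regulators and the fewest counts. It had 4, 11 and 3 counts in sgControl and 17 and 20 counts in sgMef2d, which are 0.195, 0.780 and 0.220 CPM and 1.0 and 1.35 CPM. Both sgMef2d libraries were above every sgControl library, and sgControl replicate 2 was the highest of its group. The sgControl mean was 0.398 ± 0.331 CPM (SD, n = 3) and the sgMef2d mean 1.17 ± 0.245 CPM (SD, n = 2), and the log2FC was 1.62 (standard error 0.526). As a fold this was 3.07, with a 95% interval of 1.38 to 6.84. At an edgeR adjusted p of 0.0898 the difference did not pass the threshold.

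Prlr reached the level of the expression filter in at most 1 sgControl library and entered the test through sgMef2d alone. Its result depended on single libraries, with a log2FC of 2.46 without sgControl replicate 2 and 1.19 without sgControl replicate 1. Without sgControl replicate 2, the highest of its group, sgControl is left at 4 and 3 counts, at or near the floor of 3, and the edgeR adjusted p was 0.0267, in a setting where 4.84% of genes passed, a value fixed in part by which library is dropped. Without sgMef2d replicate 1 or 2 it was 0.267 or 0.482, and over 13 alternatives it ranged from 0.0267 to 0.482. In summed counts Prlr had 18 in sgControl and 37 in sgMef2d, a ratio per library total of 3.10 with a counting interval of 1.72 to 5.78, which leaves out the spread between libraries. Of the exon bases of Prlr, 203 lie also in Gm21973, a gene on the same strand that is not listed. The 3 genes with the pattern most like that of Prlr over the 5 libraries, by the root-mean-square difference of centred log2 CPM, were Rhbdl1 (0.207), Trim62 (0.280) and Itgb1bp2 (0.297), of which none passed the test.

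The promoters of the regulators were searched for the STAT5 binding motif TTCNNNGAA, which reads the same on both strands, and for the MEF2 motif on both strands. RefSeq (GRCm38.p6) gave 14 windows of 250 bases before a start for 8 of the 10 genes, with no entry for Nr3c1 and Csn3. The STAT5 motif was found in 2 of the 14 windows and in 7.02% of the 32851 windows of all genes, and the MEF2 motif in 0 of 14 and in 2.92%. The windows that hold the STAT5 motif belong to Prlr and Esr1 and are shown for that motif, with the match in capitals. Neither gene passed the test, and their differences have opposite signs. In Prlr the window is chr15:10223656-10223905 (plus strand), before a start inside the gene, and the match begins at position -110. In Esr1 it is chr10:4709908-4710157 (plus strand), also before an inner start, with the match at -188. Both matches have the same 9 letters, and the letters do not show whether STAT5 binds there in these cells.
Prlr: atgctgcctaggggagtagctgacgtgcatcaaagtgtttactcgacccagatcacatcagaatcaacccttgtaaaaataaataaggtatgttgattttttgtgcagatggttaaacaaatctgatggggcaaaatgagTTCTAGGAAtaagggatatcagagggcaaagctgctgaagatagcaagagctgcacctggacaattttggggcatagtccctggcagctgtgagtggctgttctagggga
Esr1: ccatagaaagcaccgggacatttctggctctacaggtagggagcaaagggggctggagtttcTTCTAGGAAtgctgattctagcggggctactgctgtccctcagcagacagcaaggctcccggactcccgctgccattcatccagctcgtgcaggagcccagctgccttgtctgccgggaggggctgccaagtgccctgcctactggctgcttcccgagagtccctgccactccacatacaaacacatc

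Stat5a and Stat5b encode the transcription factors that carry the prolactin signal to milk genes. They lie next to each other on chromosome 11 of GRCm38, 8626 bases apart and pointing away from each other, with Stat5a (ENSMUSG00000004043.14) at chr11:100859351-100885169 on the plus strand and Stat5b (ENSMUSG00000020919.11) at chr11:100780731-100850724 on the minus strand. Their coding sequences, of 2379 and 2358 bases, could be aligned over 2343 bases, of which 2125 (90.7%) were identical, with a longest identical run of 324 bases. The stretches of 90 coding bases that are most and least alike are shown. A read that lies wholly inside the first does not tell the genes apart by its own bases, while a read from the second can. Capitals mark the bases that differ. The identical stretch is in exon 4 of Stat5a (chr11:100861770-100861859) and exon 3 of Stat5b (chr11:100804888-100804977). The least alike, with 23 bases that differ (74.4% identical), is in exon 20 of Stat5a (chr11:100883834-100883923) and exon 19 of Stat5b (chr11:100783133-100783222).
Stat5a, most alike: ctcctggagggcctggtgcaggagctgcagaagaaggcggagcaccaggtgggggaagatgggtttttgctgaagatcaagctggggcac
Stat5b, most alike: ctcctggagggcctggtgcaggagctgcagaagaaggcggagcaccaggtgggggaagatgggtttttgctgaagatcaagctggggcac
Stat5a, least alike: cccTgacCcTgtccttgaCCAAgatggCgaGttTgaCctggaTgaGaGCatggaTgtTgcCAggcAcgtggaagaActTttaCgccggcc
Stat5b, least alike: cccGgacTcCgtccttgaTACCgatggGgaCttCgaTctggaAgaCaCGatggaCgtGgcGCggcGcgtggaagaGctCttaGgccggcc

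Over their whole annotated transcripts the STAT5 genes share 608 words of 50 bases, which are 8.21% of the words of Stat5a and 11% of those of Stat5b, and their split is uncertain by the reads from such stretches. For the other listed regulators the share of words found in another gene was at most 1.03%, in Prlr. Stat5a also overlaps Stat3, on the opposite strand, by 72 exon bases.

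Stat5a had 234, 235 and 209 counts in sgControl and 216 and 213 counts in sgMef2d, or 11.4, 16.7 and 15.3 CPM and 12.7 and 14.3 CPM. The sgMef2d libraries lay inside the sgControl range, which was wide, with a coefficient of variation of 18.9% where counting error alone gave 6.65%. With means of 14.5 ± 2.73 and 13.5 ± 1.15 CPM, the log2FC was -0.08 (standard error 0.155, edgeR adjusted p = 0.813). The 95% interval ran from -0.42 to 0.26 on the log2 scale, and the sign was lost without sgControl replicate 2 (0.035) or sgMef2d replicate 1 (9.45e-04).

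Stat5b was the more abundant STAT5 gene. It had 44.9, 48.4 and 50.1 CPM in sgControl and 51.5 and 49.8 CPM in sgMef2d, so the groups overlapped. The log2FC was 0.09 (standard error 0.073, 95% interval -0.07 to 0.25, edgeR adjusted p = 0.526). Of the counts of both STAT5 genes, Stat5b took 79.7% (95% Wilson interval 77.3 to 82.0), 74.4% (71.4 to 77.1) and 76.6% (73.7 to 79.2) in sgControl, and 80.2% (77.7 to 82.5) and 77.6% (74.9 to 80.2) in sgMef2d. These intervals cover counting error only. The means of 76.9% ± 2.70 (SD, n = 3) and 78.9% ± 1.82 (SD, n = 2) had overlapping values (two-sided exact permutation test of the log2 ratio, p = 0.4). The smallest p this design allows is 0.1, so the test could not pass 0.05 and does not show that the shares are alike.

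**Figure D2:**
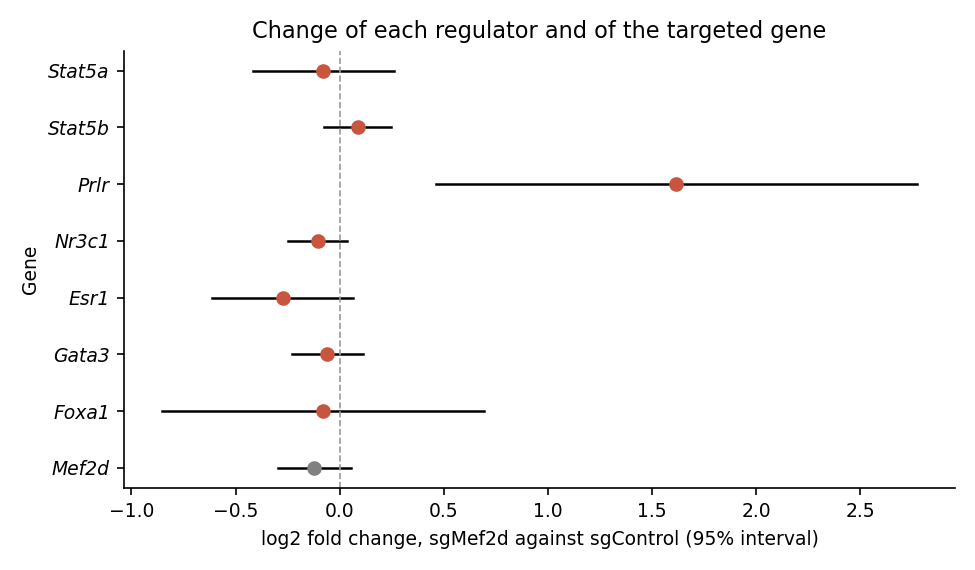
Log2 fold change of each listed regulator, sgMef2d against sgControl, with the targeted gene Mef2d in grey, as points with their 95% intervals from edgeR's quasi-likelihood fit. The interval of Prlr (0.46 to 2.77) is the only one that leaves out 0, and the intervals of Stat5b, Nr3c1 and Gata3 are the narrowest of the regulators.

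Genes that act with the prolactin receptor and STAT5 were read from a list of 32, of which 31 were tested. In this list 3 genes rose and 1 fell, 12.9% of those tested, beside 7.95% of all genes (3.67% higher and 4.28% lower). Its median log2FC was -0.04. Cav1, the caveolar protein that restrains Jak2 in mammary cells, rose from a mean of 122 ± 0.665 CPM (SD, n = 3) to 181 ± 2.38 CPM in sgMef2d (SD, n = 2), with a log2FC of 0.57 (edgeR adjusted p = 1.18e-04). Socs3, an inhibitor of cytokine receptor signalling, was at 30.9, 31.5 and 24.6 CPM in sgControl and rose to 49.4 and 46.6 CPM in sgMef2d (log2FC 0.72, edgeR adjusted p = 0.00126). The call of both genes held in each leave-one-out setting.

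Jak2, the kinase bound to the prolactin receptor, fell from 41.5, 48.7 and 46.8 CPM in sgControl to 37.1 and 33.8 CPM in sgMef2d. Its log2FC was -0.36 (edgeR adjusted p = 0.0296), and the call was lost without sgControl replicate 2 (0.111) or 3 (0.0620) and without sgMef2d replicate 1 (0.115) or 2 (0.324). Grb2, an adaptor of receptor kinases, rose from 95.0 to 111 CPM in the means (edgeR adjusted p = 0.0417), a call that was lost in the same leave-one-out settings (0.0801 to 0.388) and with DESeq2 (0.0956). The most abundant genes of the list, Ccnd1 (cyclin D1) and Ptpn11 (the phosphatase SHP2), had log2FC values of -0.05 and 0.00 and did not pass. Without sgControl replicate 1, 9 genes of the list passed (29.4% of all genes), and 2 passed when any of the other libraries was left out (1.83% to 6.51% of all genes).

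Nr3c1 encodes the glucocorticoid receptor (ENSMUSG00000024431.15, GRCm38 chr18:39410545-39519421, minus strand). It had the highest CPM of the 7 regulators, 106, 118 and 112 in sgControl and 106 and 102 in sgMef2d. Of the sgMef2d libraries, replicate 1 was at the level of the lowest sgControl library and replicate 2 was below all of them. The sgControl mean was 112 ± 5.84 CPM (SD, n = 3) and that of sgMef2d 104 ± 3.26 CPM (SD, n = 2), with a log2FC of -0.11 (standard error 0.065, 95% interval -0.25 to 0.04, edgeR adjusted p = 0.369). Without sgControl replicate 1 it was -0.14 (edgeR adjusted p = 0.0166), and over all alternatives the adjusted p ran up to 0.807.

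The chaperones that hold the glucocorticoid receptor ready for its hormone were abundant and all 12 were tested. None was called by edgeR, DESeq2 or limma-voom, beside 7.95% of all genes in edgeR. At an unadjusted p below 0.05 there were 4, beside 23.2% of all genes, and 10 of 12 had a log2FC above 0, with a median of 0.12. Fkbp4, an immunophilin that moves with the receptor, had 427, 412 and 398 CPM in sgControl and 457 and 462 CPM in sgMef2d, with no overlap (log2FC 0.16, edgeR adjusted p = 0.124). Ppp5c, a phosphatase of the receptor complex, had a log2FC of 0.18 (edgeR adjusted p = 0.128), and the abundant Hsp90ab1 and Hspa8 had 0.13 and 0.11. This list depended on sgControl replicate 1. Without it, 9 of the 12 genes passed, all higher, where 29.4% of all genes passed, with an edgeR adjusted p of 3.31e-05 for Fkbp4.

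Genes that glucocorticoids regulate, or that modify the receptor's action, formed a list of 24 with 21 tested, of which 2 rose and 1 fell (14.3%, beside 7.95% of all genes), with a median log2FC of -0.08. Lcn2, which encodes the secreted iron-siderophore binder lipocalin 2, fell from 52.4, 50.1 and 47.2 CPM to 31.4 and 32.8 CPM (log2FC -0.64, edgeR adjusted p = 5.90e-04). Zfp36, an RNA-binding protein that destabilizes cytokine transcripts, rose from 14.3 to 21.1 CPM in the means (0.57, edgeR adjusted p = 0.0192), but not without sgMef2d replicate 1 (0.303). Sgk1, a kinase induced by corticosteroids, rose from 105 to 130 CPM (0.30, edgeR adjusted p = 0.0287), a call lost in 4 leave-one-out settings (0.0505 to 0.394). Ncor1, a corepressor, and Errfi1, an inhibitor of EGFR, were the most abundant and had log2FC values of -0.13 and 0.04, neither past the threshold, but without sgControl replicate 1 Ncor1 passed at -0.21 (edgeR adjusted p = 8.73e-06). The list thus held genes called in both directions. Without sgControl replicate 1, 13 of its genes passed (29.4% of all genes), and without sgMef2d replicate 1 a single gene did (1.88%).

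Esr1, the oestrogen receptor alpha gene (ENSMUSG00000019768.16, GRCm38 chr10:4611593-5005614, plus strand), had 119, 79 and 84 counts in sgControl and 83 and 71 counts in sgMef2d. Its CPM of 5.80, 5.60 and 6.16 in sgControl and of 4.88 and 4.78 in sgMef2d did not overlap. The sgControl coefficient of variation was 4.80%, where counting error alone gave 10.3%, so these values lay closer together than counting error would place them. The log2FC was -0.27 (standard error 0.154), a fold of 0.827 with a 95% interval of 0.655 to 1.05, and the edgeR adjusted p of 0.320 did not pass. In all 14 alternatives the sign was kept, with an adjusted p between 0.297 and 0.686. Pgr, which the oestrogen receptor induces in the mammary gland, was not among the genes of the table.

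The oestrogen and progesterone list held 28 genes, of which 15 were listed and tested. Greb1, Tff1 and Tff3, which the oestrogen receptor induces, and Wnt4 and Tnfsf11, which progesterone induces, were among the 13 not listed. A single gene was called, 6.67% of those tested beside 7.95% of all genes, and the median log2FC was -0.04. Fgfr2, a receptor for fibroblast growth factors, fell from 76.0, 88.3 and 88.9 CPM to 64.0 and 61.1 CPM (log2FC -0.43, edgeR adjusted p = 0.00750), a call lost without sgMef2d replicate 1 (0.0751) or 2 (0.129). The abundant Ctsd, a lysosomal protease, had a log2FC of -0.12 (edgeR adjusted p = 0.221), and Ccnd1 is given above. Without sgControl replicate 1, 3 genes of the list passed (29.4% of all genes), among them Ctsd (edgeR adjusted p = 0.0187).

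Gata3, the luminal transcription factor (ENSMUSG00000015619.10, GRCm38 chr2:9857078-9890034, minus strand), had 59.6, 66.8 and 70.4 CPM in sgControl and 63.2 and 62.4 CPM in sgMef2d. Both sgMef2d libraries lay inside the sgControl range. The log2FC was -0.06 (standard error 0.078, 95% interval -0.23 to 0.11), with an edgeR adjusted p of 0.704, and between 0.0874 and 0.984 over the alternatives. Of its exon bases, 155 lie also in Gm13256 on the opposite strand and 77 in 9230102O04Rik on the same strand.

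Foxa1, the pioneer factor of the oestrogen receptor (ENSMUSG00000035451.7, GRCm38 chr12:57540628-57546916, minus strand), had 21, 14 and 21 counts in sgControl and 21 and 14 counts in sgMef2d. At 1.02, 0.993 and 1.54 CPM against 1.24 and 0.943 CPM the groups overlapped. With so few counts its log2FC of -0.08 had a standard error of 0.351 and a 95% interval of -0.85 to 0.69 (edgeR adjusted p = 0.919), so a difference of the size seen for Esr1 was not detectable at this depth. Elf5, the third of these lineage factors, was not among the genes of the table.

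The list of luminal and alveolar transcription factors, which also holds the Notch receptors Notch1 and Notch3 and factors known from stratified epithelia such as Grhl3, had calls in both directions, more often higher. Of 45 genes 35 were tested, and 10 rose and 2 fell (34.3%, beside 7.95% of all genes), with a median log2FC of 0.18 and 26 of 35 above 0. Of those that rose, Grhl3 and Tfap2c reached the expression filter only in sgMef2d, so a call of them could only be higher. Grhl3, a grainyhead factor of stratified and barrier epithelia, rose from 0.488, 0.496 and 0.440 CPM to 3.71 and 2.83 CPM (log2FC 2.77, edgeR adjusted p = 3.89e-04). Its call held without any single library.

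Notch3, a Notch receptor of luminal progenitors, rose from 0.731, 1.28 and 1.69 CPM to 3.53 and 4.85 CPM (log2FC 1.83, edgeR adjusted p = 0.00399), and its call was lost without sgMef2d replicate 2 (0.0766). Tbx3, a T-box factor of early mammary development, rose from 7.21 to 12 CPM in the means (0.73, edgeR adjusted p = 0.00413), a call lost without sgMef2d replicate 1 (0.0713) or 2 (0.0574). Also higher past the threshold were Tfap2c (2.28, from 6, 6 and 3 counts to 22 and 27 counts), Ehf (0.83), Nfia (0.64), Notch1 (0.54), Klf5 (0.39) and Sox9 (0.36). Nfib, a nuclear factor I gene, fell from 208, 264 and 262 CPM to 192 and 188 CPM, and Mybl1 fell by 0.27 on the log2 scale. The remaining 2 genes named by level, Nfix and Sox4, had log2FC values of -0.07 and -0.04 and did not pass, although Nfix did without sgControl replicate 1, at -0.17 (edgeR adjusted p = 3.34e-04).

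**Figure D3:**
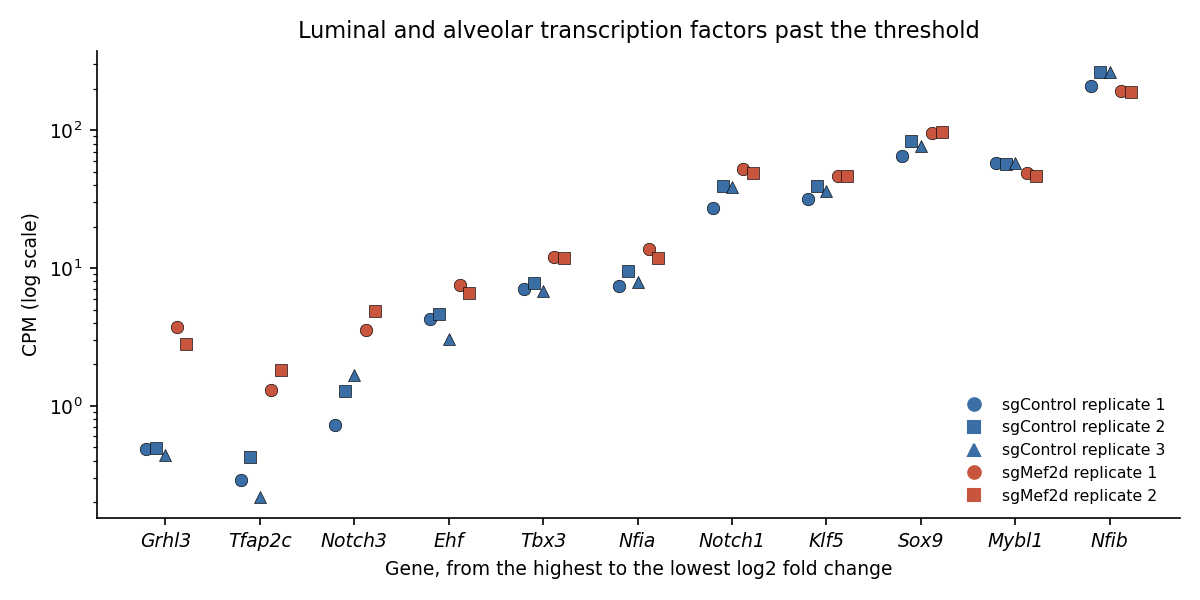
Level in CPM, on a log scale, of 11 of the 12 luminal and alveolar transcription factors past the threshold in each library, with blue symbols for sgControl and red symbols for sgMef2d, ordered by log2 fold change. For each gene shown both sgMef2d libraries lie on the same side of the sgControl libraries, with Grhl3, Tfap2c and Notch3 under 5 CPM in all libraries and the last pair, Mybl1 and Nfib, lower in sgMef2d.

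The count of this list was 16 without sgControl replicate 1, where 29.4% of all genes passed, 4 without sgMef2d replicate 1 (1.88%) and 2 without sgMef2d replicate 2 (1.83%). Beside it, the basal markers Krt5, Krt14, Krt17 and Trp63 rose and Acta2 fell as given above, with 6 of the 11 basal markers above 0 and 5 below. The part of the basal markers in the calls was not tested. Bcl11a, Bcl11b, Cebpa, Gata6, Pou2f3, Sox10, Spdef, Tbx2 and Tfap2b were not listed, and Gata2 was listed but had too few counts to be tested.

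Csn3, the kappa-casein gene, was not among the genes of the table, and the same held for 17 of 31 genes of milk proteins and milk secretion, including the caseins Csn1s1, Csn1s2a, Csn1s2b and Csn2 and the whey genes Wap and Lalba. Of the 14 tested none was called by edgeR, DESeq2 or limma-voom, 3 had an unadjusted p below 0.05 (23.2% of all genes), and the median log2FC was -7.65e-04. Pthlh, 1 of the 14, entered the test through sgMef2d alone. Xdh, which shapes the milk fat globule, had 70.1, 72.9 and 71.5 CPM in sgControl and 62.4 and 60.7 CPM in sgMef2d, without overlap (log2FC -0.21, edgeR adjusted p = 0.0622). Slc2a1, the glucose transporter GLUT1 that feeds lactose synthesis, had a log2FC of 0.17 (edgeR adjusted p = 0.185). Spp1 (osteopontin) and Scd2, a fatty acid desaturase, were the most abundant and had log2FC values of -0.06 and 0.00. Without sgControl replicate 1, 4 genes of the list passed (29.4% of all genes), with an edgeR adjusted p of 8.81e-04 for Xdh and 0.0410 for Slc2a1.

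Genes that drive the involution of the gland after weaning, in which STAT5 activity gives way to STAT3, formed a list of 33 with 26 tested. Of these 1 rose and 5 fell (23.1%, beside 7.95% of all genes), with a median log2FC of 0.0058. Stat3 rose from 144, 151 and 154 CPM to 176 and 187 CPM (log2FC 0.28, edgeR adjusted p = 0.0143), and its call was lost without sgControl replicate 2 (0.0546) or sgMef2d replicate 1 (0.102) or 2 (0.281). Pik3r1, which encodes regulatory subunits of PI3-kinase, some of them induced by STAT3 in involution, went the other way, from 79.4, 96.0 and 95.9 CPM to 49.0 and 55.8 CPM (-0.78, edgeR adjusted p = 6.30e-04). Tgfb3, an early death signal of involution, fell from 27.4 to 19.2 CPM in the means (-0.51, edgeR adjusted p = 0.00778) and Mmp3, the matrix protease stromelysin-1, from 13.7 to 8.68 CPM (-0.65, edgeR adjusted p = 0.0157).

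The call of Tgfb3 was lost without either sgMef2d library (0.118 and 0.0776) and that of Mmp3 without sgMef2d replicate 2 (0.234). Mmp11 and Cd14 fell too, by 0.48 and 0.35 on the log2 scale, and the abundant Timp3 had 0.07, which did not pass. The members called thus did not share a direction, since Stat3 was higher and Pik3r1 lower in sgMef2d. The list had 16 calls without sgControl replicate 1 (29.4% of all genes passed), 3 without sgControl replicate 2 (4.84%), and 2 and 1 without sgMef2d replicates 1 and 2 (1.88% and 1.83%).

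**Figure D4:**
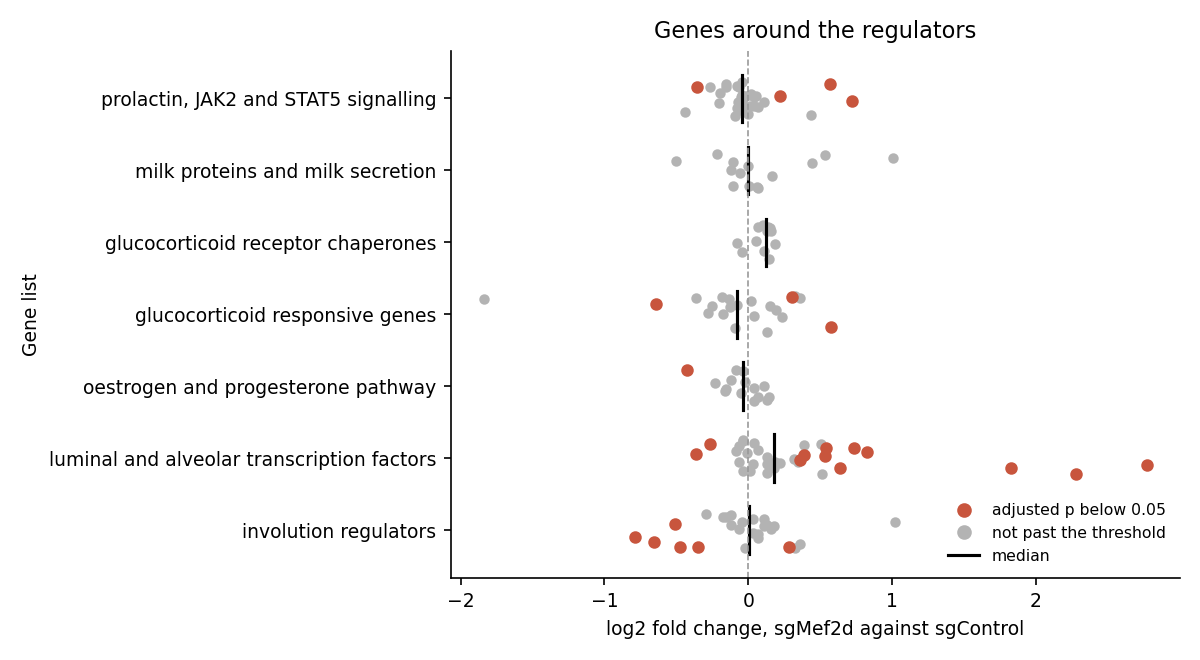
Log2 fold change, sgMef2d against sgControl, of each tested gene of the 7 lists around the regulators, with genes past an adjusted p of 0.05 in red, the others in grey and the median of each list as a black line. The luminal and alveolar list has the highest median (0.18) and 12 red points, while the milk and chaperone lists have none.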

How the data were processed

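Poly(A)-selected, strand-marked RNA libraries were aligned by the authors with STAR to GRCm38, and gene-level raw counts were deposited as whole numbers without normalization. The submitters' processing notes also name Subread, and the strand setting of the counting is not given in the sources used here. Genes with low counts had been removed: each of the 12934 listed genes reached at least 11 counts in a library. All 12934 identifiers matched GENCODE M21 once versions were dropped, 12811 of them with the same version, while the methods give another GENCODE release number.

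Counts were scaled by TMM and tested with edgeR 4.0.16 (R 4.3.3; quasi-likelihood, bias-adjusted form; expression filter by group with default settings, 12483 genes kept; Benjamini-Hochberg, threshold 0.05). Positions, exon lengths and the shared words of 50 bases come from GENCODE M21. Named were the 10 regulators, Mef2d, and of each list the 4 called genes with the smallest p (or the 2 with the smallest p where none was called) and the 2 of highest level, plus the 3 genes most like Prlr. A single gene that this rule names is not reported here. The other called genes and the markers named were chosen after their values were seen. The regulators and the lists were chosen with earlier results of these data known. DESeq2 1.42.0, limma-voom (limma 3.58.1), other normalizations and filters, fits without each library in turn and a replicate block were the alternatives. The scripts were tested on simulated counts. Library totals of 13601145 to 20498563 keep counting error small for most genes, and it limits Prlr, Foxa1 and, to a lesser degree, Esr1. PCR copies were not identified.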

Additional observations from a re-analysis of the deposited data

How the results depend on the processing

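Leaving out each library in turn moved the number of genes called from 992 to between 234 and 3639, that of the regulators called from 0 to between 0 and 1 (Nr3c1 without sgControl replicate 1 and Prlr without sgControl replicate 2), and that of genes called over the 7 lists from 26 to between 7 and 68. The lone library then left in sgMef2d was assumed to vary like sgControl. The other normalizations, filters and tests left the regulators called at 0. The groups share 2 replicate numbers, which the labels do not tie to a common day or culture. The deviations of same-numbered libraries had correlations of 0.0113 and -9.16e-04 over genes. With 2 sgMef2d libraries their deviations mirror each other, so these values cannot decide whether a number stands for a shared day or culture. With the replicate block 1254 genes, 0 regulators and 30 list genes were called. In the block the glucocorticoid responsive list had 6 calls in place of 3, and Grb2 did not pass (edgeR adjusted p = 0.0672). The sign of small log2 fold changes was lost for some genes without a library. Over these settings Stat5a ran from -0.25 to 0.035 (9.45e-04 without sgMef2d replicate 1), Foxa1 from -0.31 to 0.12 (0.083 without sgMef2d replicate 2, and 0.13 with the replicate block), Ptpn11 from -0.059 to 0.034 (-0.0071 without sgMef2d replicate 2, and -0.0051 with library totals), Spp1 from -0.12 to 0.035, Scd2 from -0.042 to 0.028 (-0.0044 with library totals) and Errfi1 from -0.022 to 0.096. The cause was not tested. With the longest transcript in place of merged exons, the level per kilobase was 20.4 and 19.5 CPM for Gata3 in sgControl and sgMef2d, 17.4 and 16.1 for Nr3c1, 9.16 and 9.71 for Stat5b, 3.65 and 3.42 for Stat5a, 0.923 and 0.762 for Esr1 and 0.119 for Prlr in sgMef2d, with the order of the means kept, but with no overlap left between Gata3 and Nr3c1 or between Esr1 and Foxa1. Prlr and Foxa1 were not tested under the filter on a mean count of 50. Genes near 3 counts are limited by depth.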
